A study of Mus musculus with 5 samples.

Results

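The genes of the circadian clock and Bhlhe40 were read in CD4 T cells sorted from the colon of mice with and without a T cell deletion of calcineurin B. The group holds 10 genes of the 19937 measured: Arntl, Clock, Per1, Per2, Nr1d1, Nr1d2, Dbp, Tef, Nfil3 and Bhlhe40. Each was found by its symbol, and each had a single probe set annotated with that symbol alone. The values are log2 array signals, so a difference of 1 is a doubling.

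The arrays held RNA of CD45+CD3+CD4+CD44low cells of the lamina propria, the connective tissue beneath the gut epithelium. There were 3 arrays of conditional mice (CD4cre/Cnb1flox), in which Cre recombinase under CD4 control removes floxed Cnb1 (symbol Ppp3r1), the gene of calcineurin's regulatory subunit. The 2 control arrays came from mice labelled WT and CD4neg/Cnb1flox, which carry the floxed gene and no Cre. Calcineurin is the calcium-dependent phosphatase that switches on NFAT transcription factors, and the study asked how its loss alters gene expression in gut CD4 cells. The labels used here give no treatment, age or hour of tissue collection, and do not say if mice were pooled for an array. Hour of collection and genotype therefore cannot be told apart, and p-values measure only the spread between these arrays, which may be technical.

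The clock is a feedback loop of transcription that runs in most cells. BMAL1 (the product of Arntl) and CLOCK bind E-box sequences and switch on Per and Cry genes, whose proteins then inhibit that same dimer. BMAL1 and CLOCK also switch on Nr1d1 and Nr1d2, whose products, the REV-ERB receptors, repress Arntl through response elements shared with the activating ROR receptors. Dbp and Tef encode activators of D-box sequences that Nfil3, the product of a gene repressed by REV-ERB, occupies as a repressor. In mouse tissues Arntl transcripts are high when those of Nr1d1, Dbp and Per2 are low. Bhlhe40 encodes an E-box repressor (DEC1) that feeds into the loop and that in mouse T cells also represses Il10 and supports Csf2 and Ifng.

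RefSeq promoters (assembly GRCm38.p6) were at hand for 8 of the 10 genes, with 13 annotated starts, and the 250 bases before each start were searched on both strands for 8 short motifs. They are shown for the genes whose start region held a canonical element of the loop, and for Arntl, which ran against most of them. Capitals mark matches to the E-box CACGTG, to its variant CACGTT and to TAGGTCA, the core of the REV-ERB and ROR response element, each also as its reverse complement. The sequences are from chr11:69098699-69098948 (+ strand) for Per1, chr11:98775378-98775627 (- strand) for Nr1d1, chr15:81802423-81802672 and chr15:81811164-81811413 (+ strand) for the upstream and downstream starts of Tef, chr13:52981040-52981289 (- strand) for Nfil3 and chr7:113207215-113207464 (+ strand) for Arntl.
Per1: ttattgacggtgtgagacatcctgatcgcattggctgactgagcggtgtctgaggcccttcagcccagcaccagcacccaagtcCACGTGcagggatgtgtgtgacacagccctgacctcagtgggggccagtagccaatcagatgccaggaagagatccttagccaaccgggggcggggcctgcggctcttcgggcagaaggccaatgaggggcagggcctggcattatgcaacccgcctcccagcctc
Nr1d1: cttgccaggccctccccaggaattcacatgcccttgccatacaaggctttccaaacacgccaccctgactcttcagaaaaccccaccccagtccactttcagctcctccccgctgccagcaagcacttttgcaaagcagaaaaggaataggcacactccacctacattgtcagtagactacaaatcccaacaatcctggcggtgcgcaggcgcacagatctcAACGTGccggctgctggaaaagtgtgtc
Tef upstream start: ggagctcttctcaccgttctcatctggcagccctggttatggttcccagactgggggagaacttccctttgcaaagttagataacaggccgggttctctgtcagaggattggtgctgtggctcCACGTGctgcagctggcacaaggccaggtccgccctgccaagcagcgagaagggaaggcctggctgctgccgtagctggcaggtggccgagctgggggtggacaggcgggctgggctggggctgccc
Tef downstream start: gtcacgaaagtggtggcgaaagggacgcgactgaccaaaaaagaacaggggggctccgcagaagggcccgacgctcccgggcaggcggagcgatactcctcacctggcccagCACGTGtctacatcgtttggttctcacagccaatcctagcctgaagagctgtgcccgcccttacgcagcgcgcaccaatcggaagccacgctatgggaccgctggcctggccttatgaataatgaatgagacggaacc
Nfil3: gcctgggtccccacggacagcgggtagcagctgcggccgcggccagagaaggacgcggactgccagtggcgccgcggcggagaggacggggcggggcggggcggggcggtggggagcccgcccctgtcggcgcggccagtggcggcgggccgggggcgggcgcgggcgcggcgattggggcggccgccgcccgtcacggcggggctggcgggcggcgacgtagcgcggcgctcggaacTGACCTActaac
Arntl: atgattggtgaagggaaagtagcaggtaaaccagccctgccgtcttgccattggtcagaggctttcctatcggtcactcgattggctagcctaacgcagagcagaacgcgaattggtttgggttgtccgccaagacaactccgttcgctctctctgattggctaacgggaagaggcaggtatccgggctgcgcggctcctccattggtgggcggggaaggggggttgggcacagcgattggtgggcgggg

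The E-box CACGTG was found before 3 of the 13 starts, 166 bases before a start of Per1 and 127 and 138 bases before the starts of Tef, against 6.02% of 32851 mouse promoters. The variant CACGTT lay 28 bases before the start of Nr1d1 (3.85% of promoters), and TAGGTCA lay 12 bases before the start of Nfil3 (2.23%). The D-box forms TTATGTAA and TTACGTAA, the response element form TGGGTCA and the cyclic AMP element TGACGTCA were before 0 of the 13 starts, against 0.819%, 0.113%, 3.24% and 1.55% of promoters. GGAAA, the core read by NFAT factors, was before 8 of the 13 starts and in 55.6% of promoters, and it is not capitalised. The starts of Arntl, Clock, Nr1d2 and Dbp held none of the marked elements in these windows. A match describes letters in a window and is not evidence of binding.

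Control replicate 1 stood apart from the other arrays, and this touches most of what follows. The mean level of 11 measured T cell markers (of 13 listed) was 8.42 in control replicate 1, 11.28 in control replicate 2 and between 10.92 and 11.17 in the conditional arrays. Cd3e, which defines the sorted cells, was at 9.45 in control replicate 1 and between 11.61 and 12.21 elsewhere. The mean of 7 stromal and endothelial markers was 11.03 in control replicate 1, 9.66 in control replicate 2 and between 9.04 and 9.90 in the conditional arrays. The endothelial genes of that list, Pecam1 and Cdh5, were higher in conditional arrays by group means, by 0.43 and 0.61. Pecam1 was lowest in control replicate 1 (8.65), and Cdh5 was at 9.43 and 6.47 in control replicates 1 and 2. The mean of 13 epithelial markers was 9.57 and 8.28 in control replicates 1 and 2 and between 7.35 and 7.71 in the conditional arrays. Macrophage and dendritic markers (11 genes) ran the other way in their mean, at 7.17 and 6.95 against 7.63 to 8.12. Mertk alone of them was lower in conditional arrays by group means, at 9.86 and 6.99 in the controls against 6.58 to 7.54. The mean of granulocyte and mast cell markers (7 genes) also ran the other way, at 6.10 and 6.11 against 6.80 to 7.03. The mean of 7 B and plasma cell markers (8 listed) was 9.65 and 9.29 in the controls and 8.53 to 9.40 in the conditional arrays, and that of 5 natural killer and innate lymphoid markers 5.65 and 6.40 against 6.36 to 6.52. Arrays give no value of 0, and no call against background was at hand. In mixed RNA, fewer cells of a type and less RNA per cell cannot be told apart. Ppp3r1 itself was at 8.64, 8.83 and 8.77 in the conditional arrays and at 8.99 and 8.60 in the controls, a difference of -0.052 that turned to 0.15 without control replicate 1, and its probe set may lie outside the deleted part, in which case it checks nothing.

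Across the 10 clock genes, 0 passed an adjusted p of 0.05 (limma, Benjamini-Hochberg over all genes), where 0.416% of all genes did. At an unadjusted p of 0.05, 3 passed in limma (Bhlhe40, Arntl and Per1), where 14.5% of all genes did. In the same 3 genes the conditional values did not overlap the controls, 2 higher and 1 lower, against 30.5% of all genes, 17.4% higher and 13.1% lower, so that the share of clock genes with groups apart was at the background. The median difference of the 10 genes was -0.33, with 3 above and 7 below 0, and the median of all genes was 0.029. Taken alone, control replicate 1 gave a median of -0.43 and control replicate 2 one of 0.22.

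**Figure D1:**
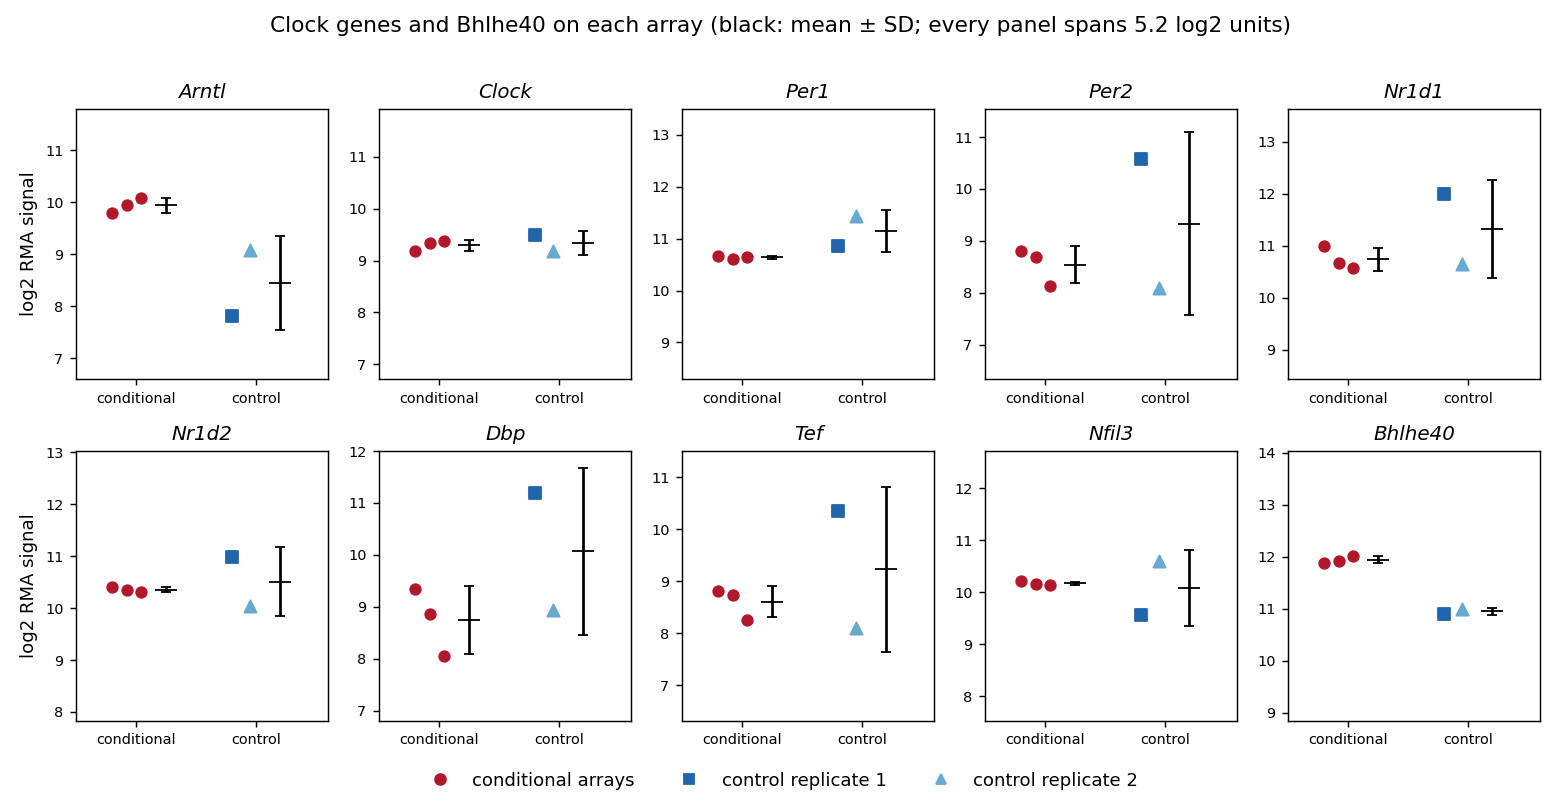
Log2 RMA signal of each clock gene and of Bhlhe40 on every array, with red circles for the 3 conditional arrays, a square for control replicate 1, a triangle for control replicate 2, and a black bar for each group's mean ± SD. Bhlhe40 sits about 1 log2 unit higher in all conditional arrays, Arntl is above both controls, and the controls lie far apart for Per2, Dbp and Tef.

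Bhlhe40 had the smallest p of the 10 genes. Its level was 11.89, 11.93 and 12.01 in conditional replicates 1, 2 and 3, and 10.90 and 10.99 in control replicates 1 and 2. Every conditional array was therefore higher than both controls, and the controls, unlike those of most clock genes, lay only 0.092 apart. The means were 11.94 ± 0.0660 (SD, n = 3) and 10.95 ± 0.0651 (SD, n = 2), and the difference was 0.99 ± 0.106 (SE), or 1.99-fold, with a 95% confidence interval from 0.72 to 1.27. It missed the threshold narrowly (limma, adjusted p = 0.0501). Its unadjusted p ranked 84 among all genes, of which 83 passed. It passed in 4 of 15 alternatives (limma, adjusted p over all from 0.00335 to 0.367), and its difference lay between 0.93 and 1.04 in every one of them. With control replicate 2 as the only control the difference was 0.95 (limma, adjusted p = 0.0162), and with control replicate 1 alone it was 1.04 (limma, adjusted p = 0.00335), where the lone control is assumed to vary like the conditional arrays.

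The array order of Bhlhe40 was the exact opposite of that of the epithelial marker mean, which was also so for Arntl and for 4.49% of all genes. The T cell marker mean differed by 2.86 between the controls, and Bhlhe40 by 0.092. Close controls with conditional arrays apart were also seen in the means of other lists. The granulocyte and mast cell mean (6.10 and 6.11 against 6.80 to 7.03) lay on the same side as Bhlhe40. The stress and immediate-early mean (11.84 and 11.92 against 10.79 to 11.08) lay on the opposite side. Single genes of these lists had wider control gaps, of median size 0.225 and 0.333, which partly cancelled in the means. Kit and Ly6g differed between the controls by 0.87 and -0.70, and Ly6g ran against its list between groups (-0.64). Tyrobp, a natural killer and myeloid adaptor gene with controls 0.16 apart, rose by 1.88 (limma, adjusted p = 0.0269). The rest of the natural killer and innate lymphoid list did not share this. Ncr1, Klrb1c, Klre1 and Eomes differed by 0.030, 0.049, -0.013 and 0.077, all with overlapping groups. The part of these lists, of Tyrobp and of the epithelial and T cell markers in the Bhlhe40 difference was not tested. By root mean square difference between profiles centred on their mean over the 5 arrays, the genes nearest to Bhlhe40 were Cblb (0.0296), whose product restrains T cell activation as a ubiquitin ligase, Mxi1 (0.0370), which encodes an antagonist of MYC, and Vgll4 (0.0430), a cofactor of TEAD factors. Because these genes were chosen for nearness to Bhlhe40 on the same arrays, differences and p-values close to its own were built in. Cblb and Mxi1 differed by 0.96 and 0.97 (limma, adjusted p = 0.0497 and 0.0496), while Vgll4 differed by 0.97 and missed the threshold (limma, adjusted p = 0.0590). Like every other gene, Tyrobp, Cblb and Mxi1 no longer passed when any 1 conditional array was left out (0 genes in limma, with 1417 to 2037 at an unadjusted p of 0.05).

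T cell genes known to lie downstream of Bhlhe40 or Nfil3 in mice were listed beside them, and 0 of 8 passed the test, where 0.416% of all genes did. At an unadjusted p of 0.05 in limma 3 passed, against 14.5% of all genes. In 4 of the 8 all conditional values lay above both controls, against 17.4% of all genes. The median difference of the 8 genes was 0.74, and it was 0.92 with control replicate 1 and 0.20 with control replicate 2 as the only control. Csf2, the GM-CSF gene, was at 7.57, 7.37 and 7.58 in conditional arrays and 6.46 and 6.64 in controls, a difference of 0.96 (limma, adjusted p = 0.0697). All conditional values of Csf2 exceeded both controls. Havcr2, the TIM-3 gene, differed by 1.76 (limma, adjusted p = 0.0617) and also did not overlap. Il10 was at 8.14, 8.35 and 9.19 in conditional arrays and at 8.74 and 11.36 in controls, so that control replicate 2 was the highest array while control replicate 1 lay within the conditional range (difference -1.49, limma, adjusted p = 0.481). Foxp3 differed by 1.47 and Il17f by 0.52, both with groups apart and neither past the threshold (limma, adjusted p = 0.328 and 0.387). Without control replicate 1 these were 0.54 and 0.25, and without control replicate 2 they were 2.41 and 0.79. Ifng, the interferon-gamma gene, differed by 1.91 (limma, adjusted p = 0.469) and by 0.15 without control replicate 1, and it was named after its value was seen.

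Arntl, the activator gene that encodes BMAL1, had the largest difference in size of the 10 genes against the mean of both controls, though Dbp exceeded it against control replicate 1 and Bhlhe40 against control replicate 2. It was at 9.80, 9.96 and 10.09 in the conditional arrays and at 7.81 and 9.09 in control replicates 1 and 2. All conditional arrays were above both controls, and control replicate 1 was the lowest of the 5. The means were 9.95 ± 0.146 (SD, n = 3) and 8.45 ± 0.905 (SD, n = 2), a difference of 1.50 ± 0.388 (SE), or 2.83-fold, with an interval from 0.51 to 2.49 that did not survive adjustment (limma, adjusted p = 0.192). The difference was 0.86 with control replicate 2 as the only control and 2.14 with control replicate 1 as the only control. A lone control gives no spread of its own, and the controls of Arntl lay 1.28 apart.

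Clock, whose product is the partner of BMAL1, was at 9.18, 9.35 and 9.37 in conditional arrays and 9.50 and 9.17 in controls. The groups overlapped, and the estimate of -0.041 ± 0.147 (SE, limma, adjusted p = 0.937) had an interval from -0.42 to 0.33. Its direction turned to 0.12 without control replicate 1 and to 0.019 without conditional replicate 1. The predicted gene Gm7467, which overlaps Clock in the reference gene table, differed by 0.097.

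**Figure D2:**
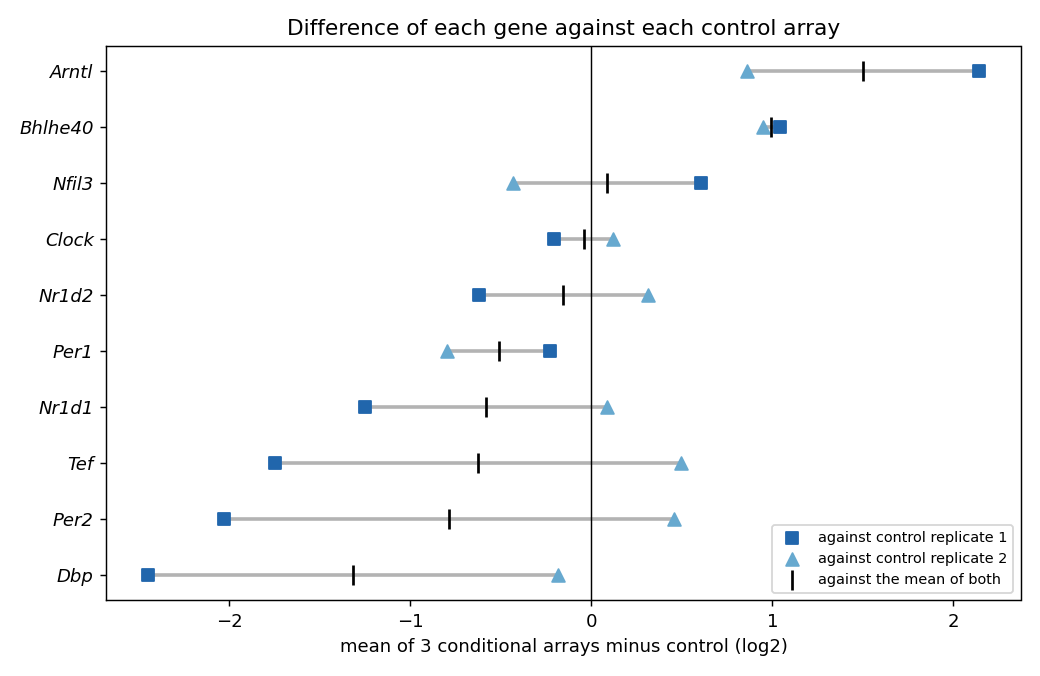
Mean of the 3 conditional arrays minus each control array, in log2 units, for the 10 genes, with a square for control replicate 1, a triangle for control replicate 2 and a black tick for the mean of both. Bhlhe40 and Arntl are to the right of 0 and Per1 and Dbp to the left against either control, and for the other 6 genes the line between the controls crosses 0.

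Of the Period genes, which encode inhibitors of BMAL1 and CLOCK, Per1 was uniform in conditional cells. It was at 10.66, 10.61 and 10.65 in the conditional arrays and at 10.87 and 11.44 in control replicates 1 and 2. Every conditional array was lower than both controls, and the spread between the conditional arrays, 0.049, was smaller than in 95.9% of all genes. The difference was -0.51 ± 0.189 (SE), with an interval from -0.99 to -0.028 (limma, adjusted p = 0.324). Taken alone, control replicate 1 gave -0.23 and control replicate 2 gave -0.80.

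Per1 is also an immediate-early gene that many stimuli induce quickly, and most of the stress and immediate-early list was likewise lower in conditional arrays. Of 12 measured members (13 listed), 11 had all conditional values below both controls, where 13.1% of all genes did, and the list median was -0.81. The list's mean level was between 10.79 and 11.08 in conditional arrays and 11.84 and 11.92 in the controls. Its controls were thus closer than those of Per1, which differed by -0.57. No clock gene, Per1 included, had the array order of this mean, as 0.497% of all genes did. Per1 departed from it only in the order of conditional replicates 2 and 3. Fos fell by 1.56 (limma, adjusted p = 0.0448), a call lost in 6 of 15 alternatives, and Hspa1a, Fosb, Ier2 and Jun differed by -1.78, -1.07, -0.85 and -0.76 without passing. Cell dissociation induces the same genes, and their part in the Per1 difference was not tested.

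Per2 behaved differently from Per1. It was at 8.81, 8.69 and 8.13 in the conditional arrays, 8.09 in control replicate 2 and 10.57 in control replicate 1. Control replicate 1 thus stood far above the other 4 arrays, and the gap of 2.49 between the controls was exceeded by 1.72% of all genes. The difference of -0.79 ± 0.747 (SE, limma, adjusted p = 0.706) turned to 0.46 without control replicate 1 and was -2.03 without control replicate 2.

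The REV-ERB genes had the same array as their highest. Nr1d1 was at 10.99, 10.67 and 10.56 in conditional arrays, 11.99 in control replicate 1 and 10.65 in control replicate 2. Nr1d2 was at 10.41, 10.34 and 10.32 in conditional arrays, 10.98 in control replicate 1 and 10.04 in control replicate 2. For both genes the conditional values lay between the controls or, in 1 array of Nr1d1, just below them. The difference was -0.58 ± 0.414 (SE) for Nr1d1 and -0.15 ± 0.286 (SE) for Nr1d2 (limma, adjusted p = 0.589 and 0.878). Without control replicate 1 both turned, to 0.088 and 0.31, and without control replicate 2 they were -1.25 and -0.62.

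Nr1d1 overlaps Thra, the thyroid hormone receptor alpha gene, on the genome, and the array kit's treatment of strand is not given in the sources used here. Thra was at 9.16, 9.01 and 8.56 in conditional arrays and at 10.90 and 9.85 in controls, so its groups did not overlap (difference -1.46, limma, adjusted p = 0.181). Thra was lower than in control replicate 2 by 0.94 and Nr1d1 higher by 0.088, and the part of Thra in the Nr1d1 signal was not tested. The 3 genes with centred profiles nearest to Nr1d1 were Mir145a, Dmwd and Lrrc55, at root mean square differences of 0.0267, 0.0268 and 0.0345 over the 5 arrays. Chosen for that nearness, they gave test results like that of Nr1d1 by construction (limma, adjusted p from 0.555 to 0.620).

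Of the D-box activator genes, Dbp was at 9.34, 8.87 and 8.04 in conditional arrays, 11.20 in control replicate 1 and 8.93 in control replicate 2. Its conditional arrays spanned 1.29, a range that 1.10% of all genes exceeded, and control replicate 2 lay inside that span. The difference of -1.32 ± 0.755 (SE, limma, adjusted p = 0.497) shrank to -0.18 without control replicate 1, and without control replicate 2 it was -2.45. Tef was at 8.82, 8.74 and 8.26 in conditional arrays, 10.35 in control replicate 1 and 8.11 in control replicate 2. Control replicate 2 was here the lowest array and control replicate 1 the highest, and the difference of -0.63 ± 0.671 (SE, limma, adjusted p = 0.747) turned to 0.50 without control replicate 1. Sphk2, which overlaps Dbp in the reference gene table, was at 8.51 in control replicate 1 and 8.85 in control replicate 2. The part of Sphk2 in the Dbp signal was not tested.

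Nfil3, the D-box repressor gene, differed between the controls in the direction opposite to Dbp and Tef. It was at 10.21, 10.15 and 10.15 in conditional arrays, 9.57 in control replicate 1 and 10.61 in control replicate 2. The conditional arrays were tightly grouped, within 0.063, and lay between the controls. The estimate of 0.086 ± 0.313 (SE, limma, adjusted p = 0.939) turned to -0.43 without control replicate 1, and it was 0.61 without control replicate 2.

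The controls differed from each other in most of the 10 genes. Control replicate 1 was the highest of the 5 arrays for Per2, Nr1d1, Nr1d2, Dbp, Tef and Clock and the lowest for Arntl, Nfil3 and Bhlhe40. Genes of the same role did not always go together, since Per1 was higher in control replicate 2 and Per2 in control replicate 1, and Clock was higher in control replicate 1 and Arntl in control replicate 2. Control replicate 1 was the highest or lowest array for 9 of the 10 genes and for 65.6% of all genes. The controls lay more than 1 log2 unit apart for 6 of the 10, against 13.3% of all genes and 19.8% of the genes above the median level. The median distance between them was 1.16 over the clock genes and 0.277 over all genes. Among the 10 genes the closest centred profiles were those of Per2 and Tef, with a root mean square difference of 0.117, and the most distant were those of Arntl and Dbp, at 1.85.

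**Figure D3:**
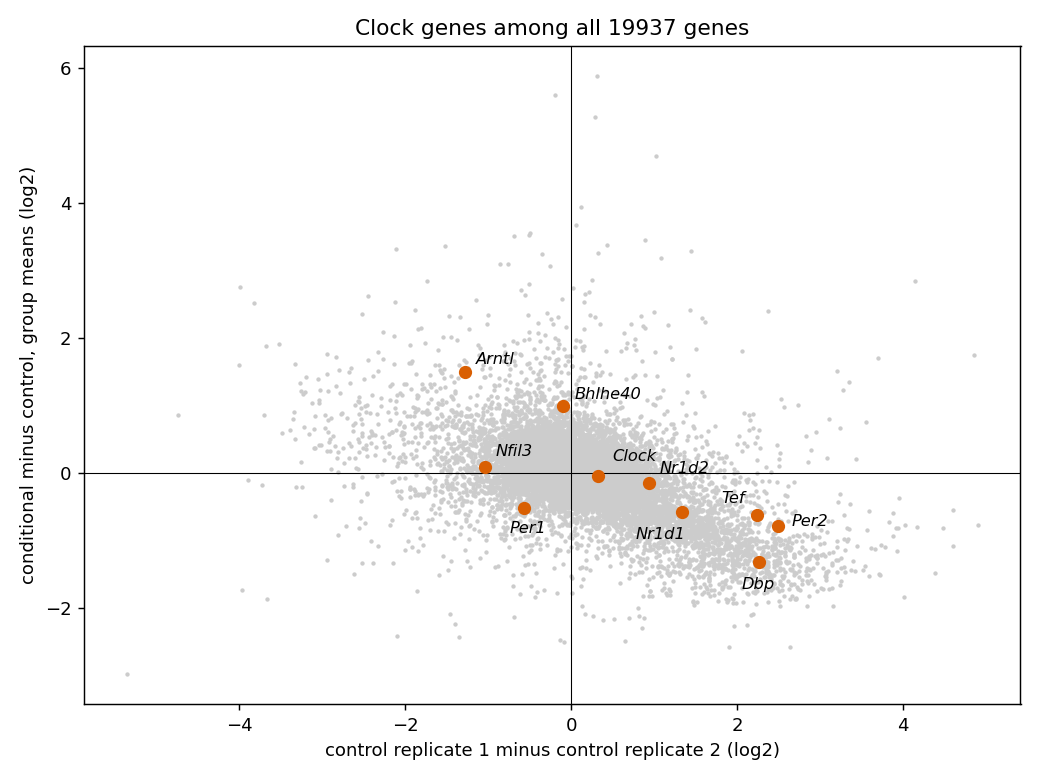
Each grey point is 1 of 19937 genes, placed by control replicate 1 minus control replicate 2 on the x axis and by conditional minus control group means on the y axis, both in log2 units, with the 10 clock genes in orange. Per2, Dbp and Tef lie far to the right, Arntl and Nfil3 to the left, and Bhlhe40 near the middle at a difference of 0.99.

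Some clock genes had the array order of a marker list mean or its reverse. Dbp followed the stromal and endothelial mean array for array, from control replicate 1 at the top through conditional replicate 1, control replicate 2 and conditional replicate 2 to conditional replicate 3, an order shared by 1.94% of all genes. Per2, Nr1d2 and Tef followed the exact opposite order of the T cell marker mean, as did 1.41% of all genes. No clock gene had the order of the epithelial or T cell mean, or the reverse of the stromal and endothelial one. These orders were looked for after the values had been seen, and the part of other cell types in the levels of clock genes was not tested. Control replicate 2 had a T cell marker mean close to that of the conditional arrays. With it as the only control, the genes with groups apart, Arntl, Bhlhe40 and Per1, differed by 0.86, 0.95 and -0.80. With control replicate 1 as the only control they differed by 2.14, 1.04 and -0.23. A lone control gives no spread of its own, so calls from such fits rest on the spread of the conditional arrays.

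**Figure D4:**
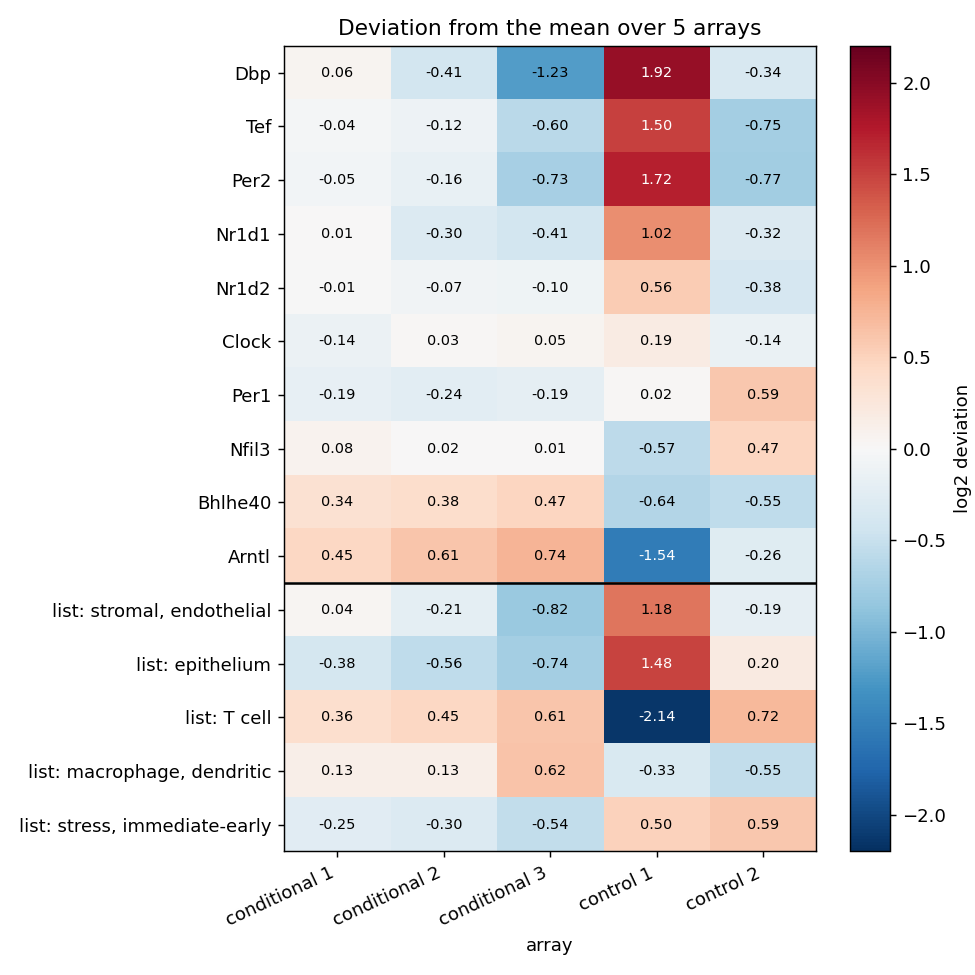
Deviation of each array from the mean over the 5 arrays, in log2 units, for the 10 clock genes (above the line) and for the mean level of 5 marker or stress lists (below it), with red for above and blue for below the mean. Control replicate 1 is reddest for Dbp, Per2 and Tef and for the stromal and epithelial lists, and bluest for Arntl and the T cell list.

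Among 9 other measured transcription genes of the clock (11 listed), 1 passed the test, where 0.416% of all genes did. In 4 the groups did not overlap, 2 higher and 2 lower, against 30.5% of all genes, 17.4% higher and 13.1% lower. Rora, which encodes the ROR alpha receptor that activates Arntl in opposition to REV-ERB, was at 11.66, 11.63 and 11.68 in conditional arrays and at 10.70 and 10.56 in controls. It rose by 1.03 in conditional cells (limma, adjusted p = 0.0477) and, like Bhlhe40, did so against each control, by 0.96 against control replicate 1 and by 1.09 against control replicate 2. The call was lost in 8 of 15 alternatives, leaving out any 1 conditional array among them (limma, adjusted p from 0.271 to 0.350).

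Cry1 and Cry2, which encode the cryptochrome partners of the PER proteins, went opposite ways. Cry1 was at 9.25, 9.48 and 9.55 in conditional arrays and 8.65 and 8.94 in controls, and Cry2 was at 8.62, 8.71 and 8.36 against 9.78 and 8.83. Neither overlapped, and their differences of 0.63 and -0.74 did not pass (limma, adjusted p = 0.181 and 0.368). Without control replicate 1 the Cry2 difference was -0.27. Ciart, which encodes a repressor of BMAL1 and CLOCK, was at 9.47, 9.11 and 8.89 in conditional arrays and 10.22 and 9.76 in controls, a difference of -0.83 (limma, adjusted p = 0.219), and its other probe set was at -1.12.

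Per3, the remaining Period gene, followed Per2. It was at 8.23, 8.05 and 7.29 in conditional arrays, 10.31 in control replicate 1 and 7.31 in control replicate 2, and its difference of -0.95 turned to 0.54 without control replicate 1 (limma, adjusted p = 0.708 and 0.532). Bhlhe41, the paralog of Bhlhe40, did not share its pattern, at 7.05, 7.62 and 6.09 in conditional arrays, 9.22 in control replicate 1 and 6.42 in control replicate 2.

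Of 11 measured genes for clock protein turnover and cofactors (13 listed), 0 passed and 2 did at an unadjusted p of 0.05 in limma, against 14.5% of all genes, and their differences ran from -1.09 to 0.31 with a median of 0.10. Usp2, a deubiquitinase gene that is itself under clock control, was at 8.92, 8.69 and 8.002 in conditional arrays, 10.65 in control replicate 1 and 8.60 in control replicate 2. As for Dbp, control replicate 1 was the highest array and control replicate 2 lay within the conditional range. The difference of Usp2 was -1.09 (limma, adjusted p = 0.519) and -0.064 without control replicate 1. Csnk1d, the gene for casein kinase 1 delta that phosphorylates PER proteins, differed by 0.18. The ubiquitin ligase genes Fbxw11 and Fbxl21 differed by 0.31 and -0.52 (limma, adjusted p = 0.275 and 0.232), with groups apart for both.

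**Figure D5:**
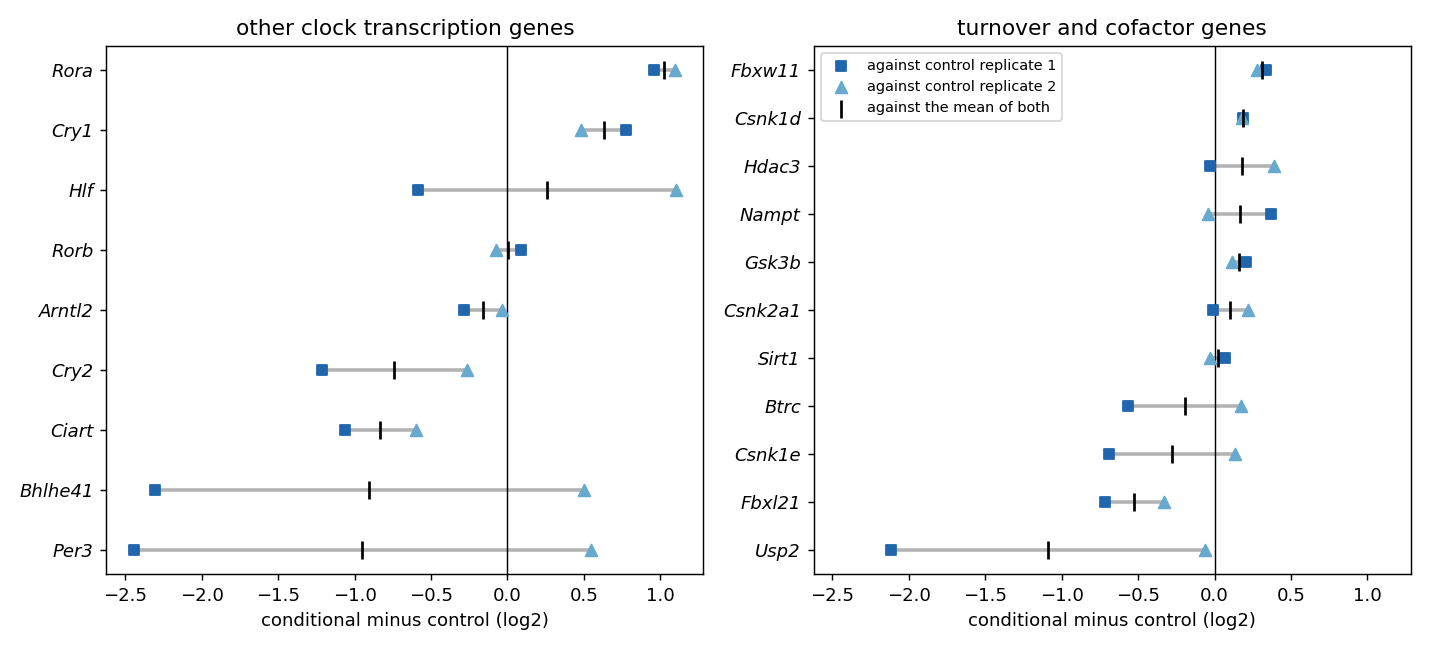
Mean of the 3 conditional arrays minus each control array, in log2 units, for 9 other clock transcription genes (left) and 11 turnover and cofactor genes (right), with squares for control replicate 1, triangles for control replicate 2 and black ticks for the mean of both. Rora and Cry1 lie to the right of 0 and Cry2 and Ciart to the left against both controls, while Per3 and Bhlhe41 lie on opposite sides of 0 for the 2 controls.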

How the data were processed

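Gene expression was measured on 5 one-colour arrays, 3 conditional and 2 control, grouped by the genotype labels. Per the submitters' processing notes, RMA of the oligo package gave the deposited log2 signals, with versions and genome build not given in the sources used here. RMA quantile-normalizes arrays together, which removes most of any global shift and compresses the differences of dim genes. Medians of the deposited values were still 7.12 in control replicate 1 and from 7.20 to 7.23 in the other arrays. Precision is limited by having 5 arrays.

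Of 34760 probe sets, the platform annotation gave 1 symbol for 21640, several for 1321 and none for 11799. For each of 19937 genes the probe set of highest mean over all arrays was used. Groups were compared with limma 3.58.1 in R 4.3.3 (lmFit, eBayes, no covariate), with Benjamini-Hochberg adjustment over all genes and a threshold of 0.05. The fit was tested on simulated arrays.

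Genes named were the 10 members, Thra, Ppp3r1, list genes past the threshold with up to 4 others by smallest p, and the 3 nearest profiles of Nr1d1 and Bhlhe40. Il10, Ifng, Gm7467, Sphk2, Bhlhe41 and every single cell type marker named, Cd3e and Tyrobp among them, were chosen after their values were seen. Members and lists were chosen with earlier results of these data known. Alternatives were other normalizations, filters, probe sets, variance models, array weights, a replicate block and each array left out.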

Additional observations from a re-analysis of the deposited data

How the results depend on the processing

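Over all genes 83 passed the threshold. The count was 13 with array weights and ran from 0 to 5474 when arrays were left out in turn (0 without any 1 conditional array, where 1417 to 2037 genes had an unadjusted p under 0.05 in limma, 1217 without control replicate 1 and 5474 without control replicate 2). Of the 10 clock genes 0 passed, and 1 did after another quantile normalization and 1 with a variance trend, in both cases Bhlhe40 (limma, adjusted p = 0.0498 and 0.0400). From 0 to 8 passed with arrays left out. Directions turned only with an array left out. The ranges over arrays left out were -2.03 to 0.46 for Per2, -1.25 to 0.088 for Nr1d1, -0.62 to 0.31 for Nr1d2, -0.20 to 0.12 for Clock, -1.75 to 0.50 for Tef, -0.43 to 0.61 for Nfil3, -2.45 to 0.54 for Per3 and -0.25 to 0.15 for Ppp3r1. With no array left out, 98 of 100 alternative values of the 10 genes kept their direction and side of the threshold. Rora lost its call with median centring, both filters on dim genes, array weights and the replicate block (limma, adjusted p = 0.0605, 0.0508, 0.0502, 0.130 and 0.288). Whether the replicate numbers pair the arrays could not be settled. Deviations from group means correlated at 0.40 for replicate 1 and -0.29 for replicate 2. With 2 controls, however, the deviations of 1 control are the exact opposite of the other's. With the replicate block 69 genes and 0 clock genes passed.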

Other observations

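Genes that glucocorticoids induce, a class to which Per1 belongs, did not move one way. Of 10 measured, 0 passed the test, 5 did at an unadjusted p of 0.05 in limma (14.5% of all genes), and the median difference was -0.31. In 2 genes the conditional values lay above both controls and in 3 below them, against 17.4% and 13.1% of all genes. Tsc22d3, the gene for the glucocorticoid-induced leucine zipper, was at 9.16, 9.23 and 8.76 in conditional arrays and 10.32 and 9.997 in controls, a difference of -1.11 (limma, adjusted p = 0.110). Its values were lower in all conditional arrays than in either control. Il7r, the interleukin-7 receptor gene, differed by 2.03 (limma, adjusted p = 0.249), and by 0.96 without control replicate 1. Nfkbia differed by 0.37 and Zfp36 by -0.57, both without passing, and Zfp36 and Dusp1 also belong to the stress and immediate-early list. Fkbp5, another glucocorticoid target, differed by 0.14 with overlapping groups and was chosen after its value was seen.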
